A study of Homo sapiens with 9 samples.

Results

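Long intergenic noncoding RNA genes that the gene catalogue names with LINC and 5 digits were followed in Kasumi-1 cells. Kasumi-1 is an established line from an acute myeloid leukaemia with the t(8;21) translocation, and so it carries AML1-ETO (AE), a fusion of the transcription factor RUNX1 with RUNX1T1. The count files list 2107 such symbols among 59648 genes. The 125 described here were chosen by their measured level, a mean over all 9 libraries of at least 0.5 CPM. CPM is the raw count scaled to the library total and expressed per 1000000 counts, and it takes no account of transcript length. The choice used that mean and no difference between groups, and the levels are given as a description. LINC00337, LINC01678 and LINC01515 lay just inside it, at 0.513, 0.513 and 0.509 CPM. LINC01943, LINC02321 and LINC00173 lay just outside, at 0.493, 0.493 and 0.439 CPM.

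The cells were infected with lentiviruses that express an shRNA, left for 48 h, held for the next 48 h in puromycin at 1 µg/mL and harvested on day 4. There were 3 libraries with AE shRNAs (numbered 1 to 3), 3 with shRNAs 538, 540 and 542 against LYL1, and 3 with a control shRNA, all carrying the virus and the selection. LYL1 is a basic helix-loop-helix factor that sits with AE in a transcription factor complex. Whether the AE numbers stand for different shRNAs or for repeats is not given in the labels. Nor is it given whether the cells of each library were cultured separately, so a p-value here reflects no more than the spread among these libraries, which may be technical. Each LYL1 shRNA has 1 library, so the spread of that group also holds any differences among its 3 shRNAs. All cells are of 1 line.

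LINC is a holding name. It was given to transcribed genes taken to be noncoding, lying apart from known coding genes or named as if they did, and without a better described function. RefSeq lists 123 of the 125 as long noncoding RNAs, and gives LINC00854, now CCDC200, as protein-coding and LINC01529, now TEX14BP, as a transcribed pseudogene. Neither was called in any comparison. Some of these RNAs act on the gene next to them, some act elsewhere as scaffolds or decoys, and for many no role is known. Their expression tends to be low and restricted to few cell types.

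Library totals ranged from 20103275 to 28039518 counts. RUNX1T1, which supplies the ETO portion, lay at 52.4%, 65.3% and 36.9% of the control mean in the 3 AE knockdown libraries, and LYL1 at 50.7%, 61.5% and 26.9% in the libraries with shRNAs 538, 540 and 542. Both knockdowns were thus partial, and replicate 3 of the AE knockdown and shRNA 542 had the least target RNA left. Of 4 tested myeloblast markers of the line (CD34, KIT, MPO and CD33), CD33 was called higher with AE knockdown and none lower, and SPINK2 was too low to test. The summed level of all 5 was 18140 to 33790 CPM with AE knockdown, 12770 to 17300 CPM with LYL1 knockdown and 18640 to 21830 CPM in the controls. MPO made up most of it, at a mean of 25720 CPM with AE knockdown and 19530 CPM in the controls. CD34 lay at 1.14, 20.5 and 3.82 CPM in AE knockdown replicates 1 to 3, against a control mean of 11.9 CPM. KIT lay at 111%, 103% and 34.8% of the control mean in them. The 4 tested of 6 markers of maturing myeloid cells (TYROBP, CSF1R, S100A8 and S100A9) were all called higher with AE knockdown. S100A9 lay at 90.4%, 773% and 1884% of the control mean in AE knockdown replicates 1 to 3, so its groups overlapped. S100A8 held 36, 83 and 1769 counts in them. CD14 was too low to test, at a mean of 0.0387 CPM with AE knockdown and 0.0646 CPM in the controls. The whole list summed to 36.1 to 376 CPM with AE knockdown and 24.5 to 40.3 CPM with LYL1 knockdown. In the controls the sum was 12.2 to 14.2 CPM. FCGR3B, of mature neutrophils, was at 0 in every library. Of 8 markers of lymphoid, red cell and platelet lines, 2 could be tested and CD3D was called lower with AE knockdown. The list summed to 0.749 to 1.39 CPM with AE knockdown, 2.21 to 5.82 CPM with LYL1 knockdown and 4.06 to 6.11 CPM in the controls, with MS4A1, HBA1 and PF4 at 0 in all 3 groups. In bulk samples such as these, fewer cells of a type and less RNA per cell cannot be told apart.

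The LINC genes were a small part of the RNA. They held 0.0747%, 0.0632% and 0.0993% of counts in AE knockdown replicates 1 to 3, 0.0665%, 0.0661% and 0.0683% with LYL1 shRNAs 538, 540 and 542, and 0.0643%, 0.0659% and 0.0651% in the controls. AE knockdown replicate 3 was the highest of the 9 libraries and AE knockdown replicate 2 the lowest. A mean level of 10 CPM or more was reached by 17 genes, 70 lay between 1 and 10 CPM and 38 between 0.5 and 1 CPM, with a median of 1.69 CPM. All 125 were detected in every library and passed the filter on low counts. In 22 of them the mean of at least 1 group was below 0.5 CPM, so that another group carried them over the threshold. The mean was below it for 7 genes with AE knockdown, 8 with LYL1 knockdown and 16 in the controls. Among the 24 genes called with AE knockdown below, this was so for 6, namely LINC00211 and LINC02371, below it with AE knockdown, and LINC00996, LINC00426, LINC01264 and LINC02724, below it in the controls. All but LINC00211 and LINC00426 were below it with LYL1 knockdown too.

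The 5 LINC genes that took the most reads held 35.9% of the counts of all 125. LINC01088 alone held 14.5%, at 82.8, 65.7 and 119 CPM in the AE knockdown libraries, 119, 94.8 and 172 CPM with LYL1 knockdown and 95.8, 99.6 and 87.9 CPM in the controls. Its groups overlapped, and it was called in none of the 3 comparisons (edgeR adjusted p = 0.939 for AE knockdown). LINC00963 lay at 33.4 ± 10.98 CPM with AE knockdown, 40.8 ± 3.42 CPM with LYL1 knockdown and 45.2 ± 4.10 CPM in the controls (SD, n = 3 each). LINC00662 lay at 41.75 ± 4.21 CPM with AE knockdown, 29.99 ± 11.99 CPM with LYL1 knockdown and 33.97 ± 1.61 CPM in the controls. Neither was called in any comparison (edgeR adjusted p of 0.146 and 0.36 for AE knockdown against control). The other two, LINC00926 and LINC01257, changed and are described with the genes below.

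AE knockdown against control asks which of these RNAs differ in level between the AE shRNA and control shRNA libraries. Of the 125, 17 rose and 7 fell with AE knockdown (edgeR quasi-likelihood test, adjusted p below 0.05). These are 13.6% and 5.6% of the LINC genes. Over all 14741 genes tested, 11.4% were called higher and 10.4% lower. The share of LINC genes called in either direction, 19.2%, was thus near the 21.8% of all genes. Their median log2 fold change was 0.37 (quartiles -0.23 and 0.84), and 81 of 125 lay above 0, while the median of all genes was 0.05 (quartiles -0.33 and 0.45). The mean that chose the genes includes the AE knockdown libraries, so this median is a description. Over the 103 genes at 0.5 CPM or more in every group the median was 0.37, with 67 above 0, 13 called higher and 5 lower. Over the 23 tested LINC genes below the threshold it was -0.04. The median standard error was 0.36 for the LINC genes and 0.22 for all genes. In 40 LINC genes every AE knockdown value was above every control value (32.0%, against 22.5% of all genes), and in 17 every one was below (13.6%, against 21.8%). At an unadjusted edgeR p below 0.05 there were 46 LINC genes (36.8%, against 37.2% of all genes). Without control replicate 1, 2 or 3 the LINC calls were 3, 4 and 3 higher and 2, 2 and 3 lower, which is 4%, 4.8% and 4.8% of them, beside 7.2%, 6.33% and 6.89% of all genes tested in those fits. Leaving out AE knockdown replicate 3 gave 10 and 5 (12%, against 17.2% of all genes). Leaving out AE knockdown replicate 2 gave 30 and 4 (27.2%, against 28.4% of all genes). Of the 24 calls, those of LINC00996, LINC01215, LINC01262 and LINC01963 were kept whichever of the 9 libraries was left out, and each of the others was lost in at least 1 such fit.

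**Figure D1:**
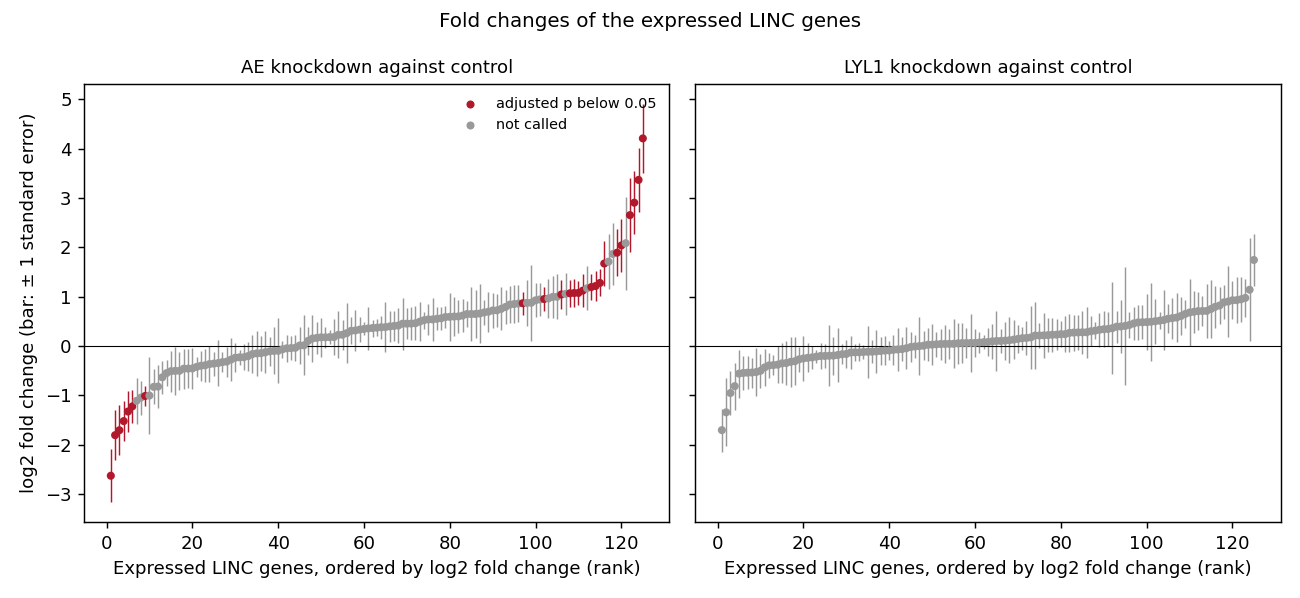
Log2 fold change (± 1 standard error) of the 125 expressed LINC genes, ordered by value, for AE knockdown against control (left) and LYL1 knockdown against control (right). Red points are called at an adjusted p below 0.05: 24 on the left and none on the right.

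The position of the LINC genes against the control mean differed among libraries of 1 group. On a scale of log2 with 0.1 CPM added, the median LINC gene lay 0.28, 0.15 and 0.35 above the control mean in AE knockdown replicates 1 to 3, against 0.02, 0.07 and -0.10 for all genes. With LYL1 knockdown the medians were 0.08, 0.18 and -0.00 for the LINC genes and 0.04, 0.02 and -0.01 for all genes. Of the LINC genes, 60.8%, 56% and 62.4% lay above the control mean in the AE knockdown libraries, against 51.5%, 55.2% and 45.1% of all genes. The shares with LYL1 knockdown were 56%, 58.4% and 48.8% of the LINC genes and 55.2%, 53.3% and 48.4% of all genes, and those in the controls 44.8%, 59.2% and 48% of the LINC genes and 50.04%, 55.2% and 45.6% of all genes. In AE knockdown replicate 2 the share was thus near that of all genes and below those of shRNA 540 and control replicate 2, and it held 5 LINC genes at 2-fold or more above the control mean and 6 at 2-fold or more below. AE knockdown replicate 3 held the highest of the 9 values for 46 LINC genes (36.8%, against 22.1% of all genes) and the lowest for 23 (18.4%, against 33.2%). It is also the library with the least fusion RNA, the highest maturing myeloid markers and a scaling factor of 0.914 against 0.998 to 1.04 in the others. The part of these in the LINC values was not tested.

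**Figure D2:**
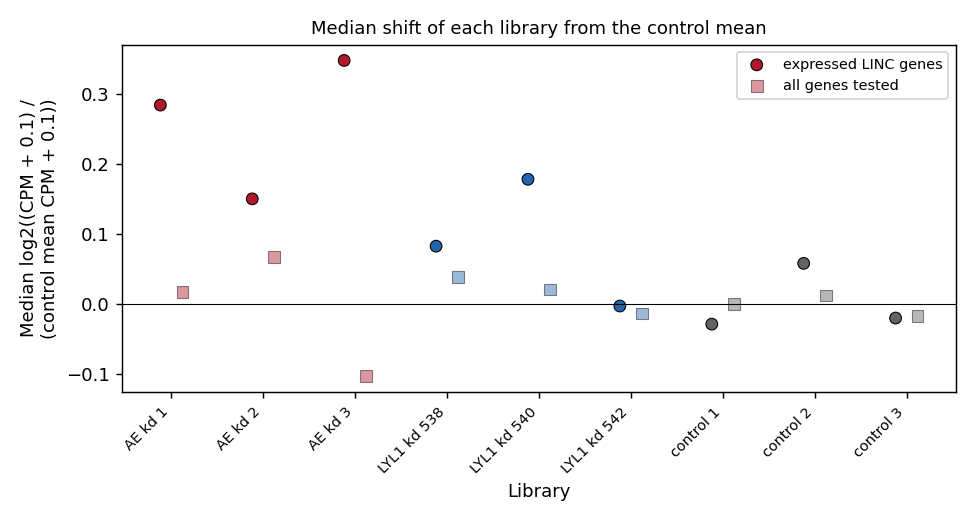
Median over genes of log2((CPM + 0.1) / (control mean CPM + 0.1)) in each library, for the 125 expressed LINC genes (circles) and all genes tested (squares). The LINC medians of the 3 AE knockdown libraries lie at 0.28, 0.15 and 0.35, and that of shRNA 540 at 0.18, above that of AE knockdown replicate 2.

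LINC00996 had the largest rise. RefSeq places it beside GIMAP8, in the cluster of GIMAP genes, GTPases of lymphocytes. It lay at 1.57, 0.695 and 3.12 CPM in the AE knockdown libraries, 0.0789, 0.118 and 0.199 CPM with LYL1 knockdown and 0.0811, 0.114 and 0.0837 CPM in the controls. Every AE knockdown library was above every other library, but the controls held only 2, 3 and 2 reads of it. The fit put the rise at 4.21 on the log2 scale (SE 0.71, edgeR adjusted p = 0.00386). The summed counts, 134 with AE knockdown and 7 in the controls, gave a ratio of CPM of 18.35 with an exact 95% interval of 8.66 to 46.5, which covers counting error only. The call held in each of the 9 fits that left out 1 library. LINC00996 passed the threshold only through the AE knockdown libraries, with means of 1.79 CPM there, 0.132 CPM with LYL1 knockdown and 0.0929 CPM in the controls and a mean over all 9 of 0.673 CPM.

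LINC01215 lay at 19.6, 8.23 and 50.5 CPM with AE knockdown, 5.95, 5.05 and 1.84 CPM with LYL1 knockdown and 2.64, 2.54 and 2.80 CPM in the controls. Its AE knockdown values were the 3 highest of the 9 and spread over a wide range, while the controls hardly differed. The change on the log2 scale was 3.37 (SE 0.65, edgeR adjusted p = 0.00868), a 10.3-fold rise, and the call held in all 9 fits that left out 1 library. Without AE knockdown replicate 3 it was 2.36, or 5.13-fold. LINC00926, an RNA that is abundant in B lymphocytes, lay at 57.5, 26.1 and 210 CPM with AE knockdown, 11.2, 11.98 and 13.6 CPM with LYL1 knockdown and 13.4, 14.1 and 14.2 CPM in the controls. It was the rise with the most reads behind it, and AE knockdown replicate 3 stood far above the other two. The difference was 2.91 on the log2 scale (SE 0.64, edgeR adjusted p = 0.0131) and 1.56 without that library. The call was lost when control replicate 1, 2 or 3 was left out (adjusted p of 0.0608, 0.0626 and 0.0551). MS4A1, the B cell antigen CD20, was at 0 in every library.

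LINC00426 lay at 2.32, 0.842 and 5.80 CPM with AE knockdown, 1.10, 0.473 and 0.249 CPM with LYL1 knockdown and 0.649, 0.456 and 0.335 CPM in the controls. The AE knockdown libraries lay above the controls, but AE knockdown replicate 2 lay within the range of the LYL1 libraries. The log2 fold change came to 2.65 (SE 0.75, edgeR adjusted p = 0.0305), and 1.68 without AE knockdown replicate 3 (adjusted p = 0.0677), and the call was also lost without any 1 control. LINC02701 lay at 6.31, 1.32 and 3.43 CPM with AE knockdown and 0.73, 1.25 and 0.753 CPM in the controls, a 4.11-fold rise (edgeR adjusted p = 0.0234). Its lowest AE knockdown value was barely above its highest control, and the call was lost in 5 of the 9 fits that left out 1 library. Without AE knockdown replicate 1 the rise was 2.63-fold (adjusted p = 0.0756).

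LINC01264 and LINC02724 also rose, 3.71-fold and 3.19-fold (edgeR adjusted p of 0.0196 and 0.0247), to 1.04 and 1.14 CPM with AE knockdown, against 0.277 ± 0.0902 and 0.358 ± 0.107 CPM in the controls, which lie below the threshold. LINC00884, now ATP13A3-DT, starts opposite the transporter gene ATP13A3 and shares exon sequence with it on the other strand. It lay at 8.43 ± 2.29 CPM with AE knockdown and 3.56 ± 0.526 CPM in the controls (edgeR adjusted p = 0.0107). ATP13A3 itself was not called (log2 fold change -0.35, adjusted p = 0.102). As the strand setting of the counting is not given in the sources used here, reads of such partners cannot be told apart. LINC02245 and LINC00265 rose 2.33-fold and 2.29-fold (edgeR adjusted p of 0.0203 and 0.0121), LINC00265 at 2.43, 1.98 and 2.37 CPM with AE knockdown, 1.81, 1.695 and 1.24 CPM with LYL1 knockdown and 0.973, 0.987 and 1.05 CPM in the controls. In that gene all 3 groups were apart from each other. The other 7 rises, among them LINC00205, LINC01003, LINC00467 and LINC01410, lay between 0.87 and 1.12 on the log2 scale. When AE knockdown replicate 3 was left out, those of LINC00467 and LINC01410 were 0.66 and 0.55 and were not called.

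**Figure D3:**
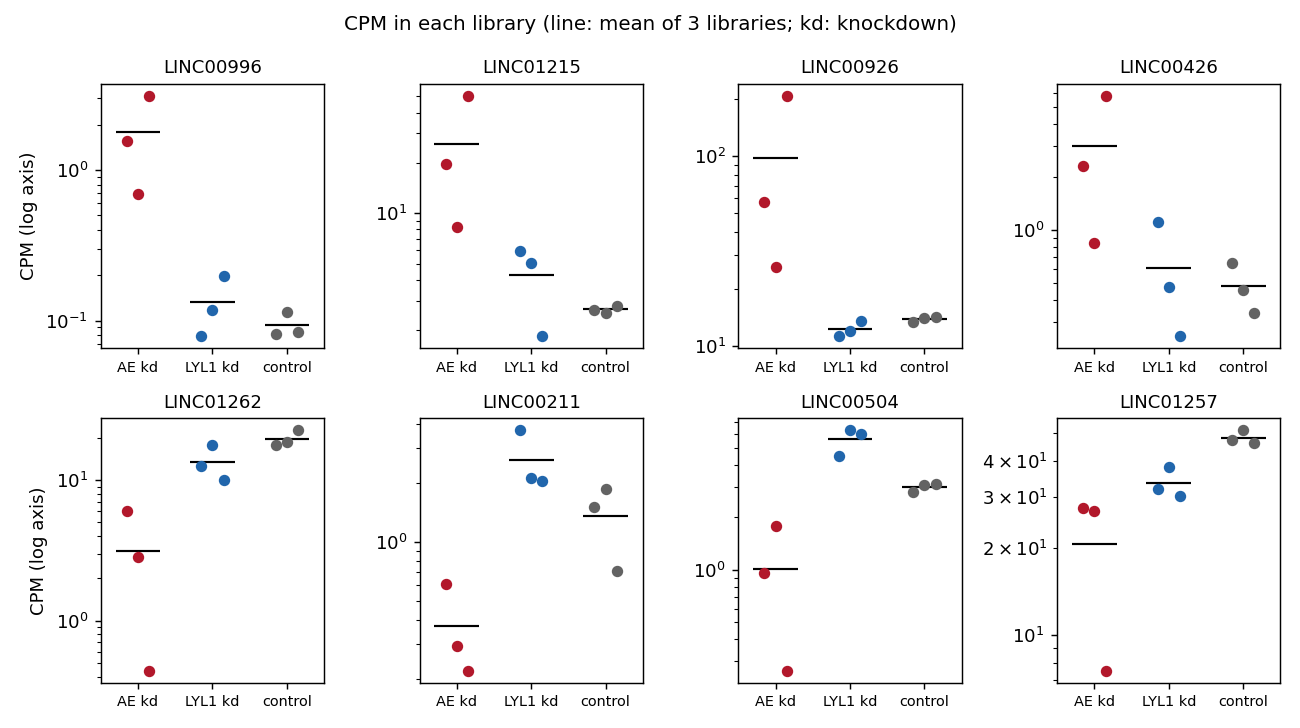
CPM (log axis) of 8 LINC genes in each of the 9 libraries, by group, with the mean of 3 libraries as a line. The upper row holds 4 genes that rose with AE knockdown and the lower row 4 that fell. For LINC00211 and LINC00504 the LYL1 knockdown libraries lie above the controls while the AE knockdown libraries lie below.

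Among the falls, LINC01262 was the largest. It lay at 6.06, 2.82 and 0.439 CPM with AE knockdown, 12.7, 17.9 and 10.1 CPM with LYL1 knockdown and 17.8, 18.8 and 22.6 CPM in the controls. The AE knockdown libraries were all below the other 6, and AE knockdown replicate 3 was lowest. The change on the log2 scale was -2.63 (SE 0.54, edgeR adjusted p = 0.0104), with the call kept whichever library was left out. LINC01963 had the smallest of the 7 falls. It lay at 4.24, 5.97 and 4.57 CPM with AE knockdown, 9.94, 7.80 and 11.1 CPM with LYL1 knockdown and 10.2, 9.49 and 10.6 CPM in the controls, a log2 fold change of -1.01 (SE 0.20, edgeR adjusted p = 0.00854). It and LINC00996 were called in every alternative fit that tested them, LINC00996 being untested under the strict filter.

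LINC01257 was the fall with the most reads. It lay at 27.6, 26.9 and 7.51 CPM with AE knockdown, 32.1, 38.4 and 30.3 CPM with LYL1 knockdown and 47.4, 51.2 and 46.5 CPM in the controls. All AE knockdown libraries were below all LYL1 libraries, and those below all controls. It changed by -1.22 on the log2 scale with AE knockdown (SE 0.34, edgeR adjusted p = 0.03), while the value of -0.54 with LYL1 knockdown was not called. LINC02593 lay at 8.99, 3.22 and 1.58 CPM with AE knockdown and 16.9, 13.9 and 15.2 CPM in the controls (log2 fold change -1.704, edgeR adjusted p = 0.0387, and -2.64 without AE knockdown replicate 1). Both lost the call without any 1 of the 3 controls, and LINC02593 also without AE knockdown replicate 2 or 3 or shRNA 540. LINC02371, at 0.356 ± 0.176 CPM with AE knockdown and 0.918 ± 0.209 CPM in the controls, lost its call in 7 of the 9 fits that left out 1 library (edgeR adjusted p = 0.0406 with all).

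LINC00211 and LINC00504 fell with AE knockdown and were higher with LYL1 knockdown. LINC00211 is now named PIRAT1, for PU.1-induced regulator of alarmin transcription, an RNA described in human monocytes as acting on S100A8 and S100A9. It lay at 0.606, 0.293 and 0.22 CPM with AE knockdown, 3.71, 2.13 and 2.04 CPM with LYL1 knockdown and 1.5, 1.86 and 0.712 CPM in the controls. The 3 groups did not overlap in CPM, but in raw counts they did. AE knockdown replicate 1 and control replicate 3 held 17 reads each. With shRNA 542 there were 41 reads, against 49 in control replicate 2. For LINC00211 the log2 fold change was -1.80 with AE knockdown (SE 0.50, edgeR adjusted p = 0.0282) and 0.93 with LYL1 knockdown (SE 0.38, adjusted p = 0.998). LINC00504 lay at 0.963, 1.79 and 0.264 CPM with AE knockdown, 4.49, 6.31 and 6.02 CPM with LYL1 knockdown and 2.80, 3.08 and 3.10 CPM in the controls. Here too the groups were apart. The log2 fold changes were -1.52 with AE knockdown (SE 0.40, edgeR adjusted p = 0.0238) and 0.89 with LYL1 knockdown (SE 0.34, adjusted p = 0.97), so that only the first passed the test. LINC00211 lost its AE knockdown call without control replicate 1 or 2 or AE knockdown replicate 2 or 3, and LINC00504 without any 1 control or AE knockdown replicate 1.

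The promoters of the 3 largest rises and 3 largest falls with an entry in the RefSeq promoter table are shown, since these genes moved most with a fusion that carries the DNA-binding domain of RUNX1. Each runs 5′ to 3′ on the gene's strand, from 250 bases before to 50 after the start, on GRCh38.p14. Capitals mark RUNX motifs (TGTGGT or TGCGGT, either strand) and E-boxes of the type that LYL1 and its E protein partners bind (CAGCTG or CAGATG, either strand).

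LINC00996, chr7:150433404-150433703, plus strand: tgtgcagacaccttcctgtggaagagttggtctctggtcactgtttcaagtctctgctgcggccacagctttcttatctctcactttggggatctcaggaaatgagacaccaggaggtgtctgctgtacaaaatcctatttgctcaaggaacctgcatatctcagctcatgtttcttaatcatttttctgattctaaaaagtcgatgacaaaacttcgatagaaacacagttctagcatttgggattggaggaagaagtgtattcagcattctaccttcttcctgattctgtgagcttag

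LINC01215, chr3:108125571-108125870, plus strand: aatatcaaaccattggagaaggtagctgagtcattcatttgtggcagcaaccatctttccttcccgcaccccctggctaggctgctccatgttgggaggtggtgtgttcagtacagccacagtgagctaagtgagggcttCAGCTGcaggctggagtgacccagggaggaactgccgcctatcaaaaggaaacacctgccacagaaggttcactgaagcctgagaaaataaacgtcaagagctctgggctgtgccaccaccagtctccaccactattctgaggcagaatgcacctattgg

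LINC00426, chr13:30373865-30374164, minus strand: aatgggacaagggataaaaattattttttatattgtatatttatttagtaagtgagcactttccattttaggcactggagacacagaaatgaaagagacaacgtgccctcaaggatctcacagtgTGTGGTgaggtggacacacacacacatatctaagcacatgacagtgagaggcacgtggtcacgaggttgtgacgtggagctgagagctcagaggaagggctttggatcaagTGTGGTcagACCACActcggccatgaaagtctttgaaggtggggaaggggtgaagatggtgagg

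LINC01262, chr4:189659356-189659655, plus strand: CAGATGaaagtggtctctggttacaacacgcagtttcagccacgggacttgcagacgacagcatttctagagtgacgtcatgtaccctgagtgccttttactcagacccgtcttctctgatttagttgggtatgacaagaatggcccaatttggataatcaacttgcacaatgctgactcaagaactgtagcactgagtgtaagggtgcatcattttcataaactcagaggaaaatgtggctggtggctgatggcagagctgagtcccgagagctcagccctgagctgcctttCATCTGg

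LINC00211 (PIRAT1), chr2:37829662-37829961, minus strand: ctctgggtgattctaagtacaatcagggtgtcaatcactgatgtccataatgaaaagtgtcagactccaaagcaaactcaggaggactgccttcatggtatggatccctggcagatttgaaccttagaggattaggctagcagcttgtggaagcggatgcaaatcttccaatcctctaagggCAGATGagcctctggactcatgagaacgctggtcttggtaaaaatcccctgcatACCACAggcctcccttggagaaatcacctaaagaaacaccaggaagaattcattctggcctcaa

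LINC02593, chr1:919643-919942, minus strand: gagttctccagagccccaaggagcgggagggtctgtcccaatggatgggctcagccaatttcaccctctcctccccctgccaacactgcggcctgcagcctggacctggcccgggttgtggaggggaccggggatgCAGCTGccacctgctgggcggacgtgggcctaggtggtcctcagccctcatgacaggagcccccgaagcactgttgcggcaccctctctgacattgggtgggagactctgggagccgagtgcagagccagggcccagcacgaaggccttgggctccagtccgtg

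LINC00426 held 3 RUNX motifs and no such E-box, LINC00211 held 1 of each, LINC01262 held 2 E-boxes and LINC01215 and LINC02593 held 1 E-box each. LINC00996 held neither. Over the 108 LINC genes with an entry, 25.9% of promoters held a RUNX motif and 33.3% an E-box, beside 19.6% and 29.8% of all 35116 promoters in the table. A RUNX motif was found in 6 of 13 entries of genes that rose with AE knockdown, 1 of 4 that fell and 21 of 91 that were not called. For E-boxes the counts were 2 of 13, 3 of 4 and 31 of 91. ETS motifs (CCGGAAG or AGAGGAAG) stood in 6 of 13, 0 of 4 and 17 of 91, with 14.2% of all promoters holding one. AP-1 motifs (TGANTCA) stood in 2 of 13, 1 of 4 and 6 of 91 (7.71% of all), and C/EBP motifs (TTGCNNAA or TTNNGCAA) in 3 of 13, 1 of 4 and 7 of 91 (10.46% of all). All were searched on both strands. These counts describe letters in a 300-base window, with the numbers of entries as small as given. Motifs of different kinds may overlap. The GC content of the window had a median of 58.2% over the LINC genes and 58.7% over all promoters.

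Since LINC RNAs can act on nearby genes, each called LINC gene was set beside its nearest protein-coding genes, which the RefSeq table (GRCh38.p14) gives on either side or overlapping. Of the 24 called with AE knockdown, 22 had at least 1 tested coding neighbour, in 36 pairs. In 7 pairs the neighbour was called in the same direction, in 4 in the opposite direction, and in 25 it was not called. Of 148 neighbours of LINC genes that were not called, 29 were called (19.6%), beside 30.6% of the 36 and 21.8% of all genes. Neighbours are measured in the same libraries as the LINC genes.

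LINC01215 was the case in which both neighbours rose with it. CD47, the surface protein that inhibits phagocytosis, lay at 181 ± 87.6 CPM with AE knockdown and 72.4 ± 5.22 CPM in the controls (log2 fold change 1.39, SE 0.31, edgeR adjusted p = 0.0133). IFT57, of intraflagellar transport, lay at 48.9 ± 7.64 CPM with AE knockdown and 22.6 ± 1.10 CPM in the controls (log2 fold change 1.15, SE 0.17, edgeR adjusted p = 0.00323). LINC02593 fell beside SAMD11, a gene at 1.24 ± 1.035 CPM with AE knockdown and 7.48 ± 0.823 CPM in the controls (log2 fold change -2.53, edgeR adjusted p = 0.00812). LINC01257 fell beside the adhesion receptor gene ADGRD1 (1.72 ± 0.405 against 5.78 ± 1.085 CPM in the controls, edgeR adjusted p = 0.00531). LINC00211 fell beside CDC42EP3, an effector of the GTPase CDC42 (25.3 ± 4.28 against 46.4 ± 2.80 CPM in the controls, edgeR adjusted p = 0.0104). LINC00205 rose beside POFUT2, a protein O-fucosyltransferase, and LINC01572 beside PMFBP1 (log2 fold changes of the neighbours 0.58 and 1.28).

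Opposite pairs were LINC00467 with TRAF5, a signalling adaptor of TNF receptors (log2 fold change -1.38), LINC01572 with its other neighbour ZFHX3 (-1.10), LINC02245 with SLC1A4 (-0.94) and LINC01264 with BMS1 (-0.66). LINC00926, LINC00426 and LINC02701 rose with no called neighbour. TCF12, an E protein and partner of LYL1 that lies next to LINC00926, had a log2 fold change of -0.24 (edgeR adjusted p = 0.221), and KATNAL1, next to LINC00426, one of 0.37 (adjusted p = 0.14). GIMAP8, next to LINC00996, held 6, 3 and 10 counts in the AE knockdown libraries, 4, 0 and 0 with LYL1 knockdown and 0, 1 and 3 in the controls, and was not tested.

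**Figure D4:**
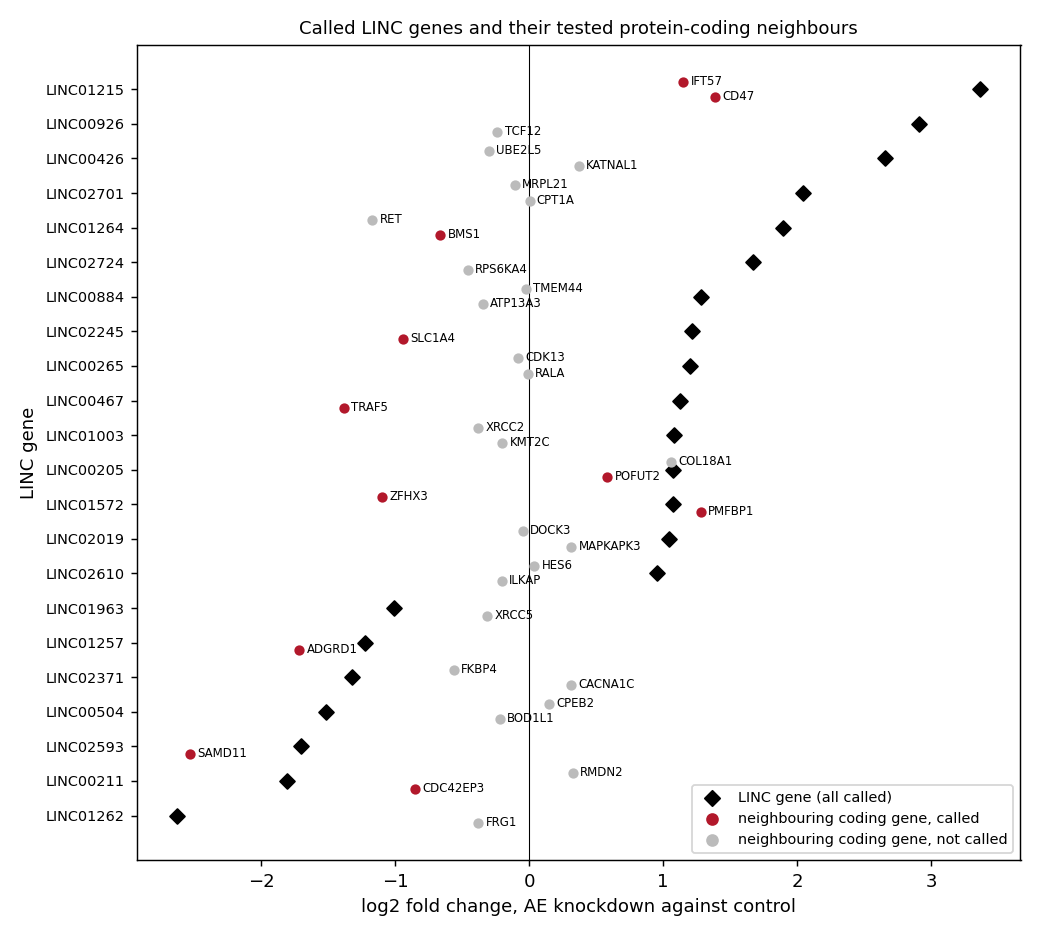
Log2 fold change with AE knockdown against control of each called LINC gene (diamond) and of its tested protein-coding neighbours (circles, red where called). Both neighbours of LINC01215, at 1.39 and 1.15, are red and on its side. Of all 36 circles, 25 are not called.

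With LYL1 knockdown no LINC gene was called by edgeR, DESeq2 or any other setting run, and 8 of 125 had an unadjusted edgeR p below 0.05 (6.4%, against 4.82% of all genes). Over all 14741 genes edgeR called 0.00678% higher and 0.00678% lower, 1 gene each and 0.0136% in all, so the LINC count was near the background. Over the other settings the number at an unadjusted p below 0.05 ran between 3, with the strict filter, and 17, in the fit of the 6 libraries. It was 6 by DESeq2 and 14 by limma-voom with a spread per group. The shares of all genes at that p in these settings are not given here, so the numbers cannot be set against a background. The median log2 fold change of the LINC genes was 0.08 (quartiles -0.13 and 0.40), beside 0.01 for all genes. The groups were fully apart for 14 LINC genes that were higher (11.2%, against 9.68% of all genes) and 8 that were lower (6.4%, against 7.11%). The smallest p among LINC genes was that of LINC02371, at 0.237, 0.276 and 0.348 CPM with LYL1 knockdown against 0.689, 1.10 and 0.963 CPM in the controls (unadjusted p = 0.00251, edgeR adjusted p = 0.596). LINC01144, chosen for mention after its values were seen, lay at 1.18, 0.631 and 1.54 CPM with LYL1 knockdown against 0.284, 0.38 and 0.293 CPM in the controls (unadjusted p = 0.00628, edgeR adjusted p = 0.773). In both the groups were apart, at levels of few reads. No LINC gene was called in both comparisons against control. LYL1 itself, the target, had an edgeR adjusted p of 0.527 in the same fit.

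AE knockdown against LYL1 knockdown tests the difference between them directly. Here 17 LINC genes were higher and 8 lower with AE knockdown (13.6% and 6.4%, against 10.7% and 9.7% of all genes). The 25 called in either direction compare with 20.4% of all genes. The median log2 difference was 0.23 for the LINC genes and 0.03 for all genes. There was no overlap between these groups for 22 LINC genes that were higher with AE knockdown (17.6%, against 17.0% of all genes) and 11 that were lower (8.8%, against 17.8%). The higher calls numbered 10, 10 and 11 without control replicates 1 to 3, 9, 11 and 6 without shRNAs 538, 540 and 542, 8 without AE knockdown replicate 3 and 27 without AE knockdown replicate 2. Leaving out control replicate 1 or shRNA 538 left 5 lower calls. In either direction the calls were 12%, 12.8% and 13.6% of the LINC genes without control replicates 1 to 3, against 14.2%, 14% and 15% of all genes. They were 11.2%, 13.6% and 9.6% without shRNAs 538, 540 and 542, against 12.1%, 14.1% and 9.66% of all genes. Without AE knockdown replicate 2 they were 28% (26.7% of all genes), and without AE knockdown replicate 3 they were 12.8% (16.6% of all genes). Those kept whichever library was left out were LINC00996, LINC00926, LINC02724, LINC00884, LINC01963, LINC00504 and LINC00211.

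The largest difference was again that of LINC00996 (log2 difference 3.80, SE 0.68, edgeR adjusted p = 0.00474), followed by LINC00926 (3.10, SE 0.64, adjusted p = 0.011). LINC02724 came next, at 1.36, 0.622 and 1.45 CPM with AE knockdown, 0.0789, 0.237 and 0.0995 CPM with LYL1 knockdown and 0.243, 0.456 and 0.377 CPM in the controls. The controls lay between the knockdowns without overlap in CPM. The highest LYL1 knockdown value, 0.237 CPM, was barely below the lowest control, 0.243 CPM, at levels of few reads. That gap does not separate LYL1 knockdown from control. The log2 difference between the knockdowns was 3.01 (SE 0.56, edgeR adjusted p = 0.00633). LINC01215, LINC00426, LINC02701, LINC01534, LINC01264, LINC00884 and LINC00205 completed the 10 largest, at log2 differences of 1.07 to 2.69. Of these, LINC01534, now ZNF567-DT, lay at 3.51 ± 1.93 CPM with AE knockdown, 1.19 ± 0.47 CPM with LYL1 knockdown and 1.72 ± 0.132 CPM in the controls. Without AE knockdown replicate 3 the differences of LINC00926, LINC01215, LINC00426 and LINC01534 were 1.77, 1.67, 1.32 and 1.04, and those of LINC00426 and LINC01534 were not called (adjusted p of 0.1251 and 0.088). The calls of LINC00426, LINC01534 and LINC01264 (edgeR adjusted p = 0.0481 for the last) were each kept in only 1 of the 9 fits that left out 1 library. The difference of LINC02701 was 1.22 without AE knockdown replicate 1 (adjusted p = 0.113).

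Among the 8 that were lower with AE knockdown than with LYL1 knockdown, LINC00211 and LINC00504 led, at log2 differences of -2.73 (SE 0.47, edgeR adjusted p = 0.00494) and -2.41 (SE 0.39, adjusted p = 0.00417). They were called in every alternative fit that tested them, as were LINC00996 and LINC02724. The strict filter left LINC00211, LINC00996 and LINC02724 untested. LINC01262 and LINC01963 differed by -2.07 and -0.92 (edgeR adjusted p of 0.0246 and 0.0121). LINC01132, LINC01123, LINC00852 and LINC00641 were not called against control in either knockdown, and differed between the knockdowns by -1.72, -1.33, -1.10 and -0.58 (edgeR adjusted p of 0.0219 to 0.0411). LINC00641 lay at 10.8, 16.9 and 14.1 CPM with AE knockdown, 19.8, 22.8 and 21.9 CPM with LYL1 knockdown and 13.7, 15.6 and 15.3 CPM in the controls. In that gene the LYL1 libraries stood above the other 6. LINC01123 lay at 1.42 ± 0.473 CPM with AE knockdown, 3.67 ± 2.15 CPM with LYL1 knockdown and 2.06 ± 0.31 CPM in the controls, and its difference was -0.77 without shRNA 538 (adjusted p = 0.141). LINC00852 shares exon sequence with the ghrelin gene GHRL on the other strand, and GHRL rose with AE knockdown (log2 fold change 2.85, edgeR adjusted p = 0.00352) while LINC00852 lay at 1.11 ± 0.26 CPM with AE knockdown, 2.47 ± 0.531 CPM with LYL1 knockdown and 1.498 ± 0.471 CPM in the controls.

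**Figure D5:**
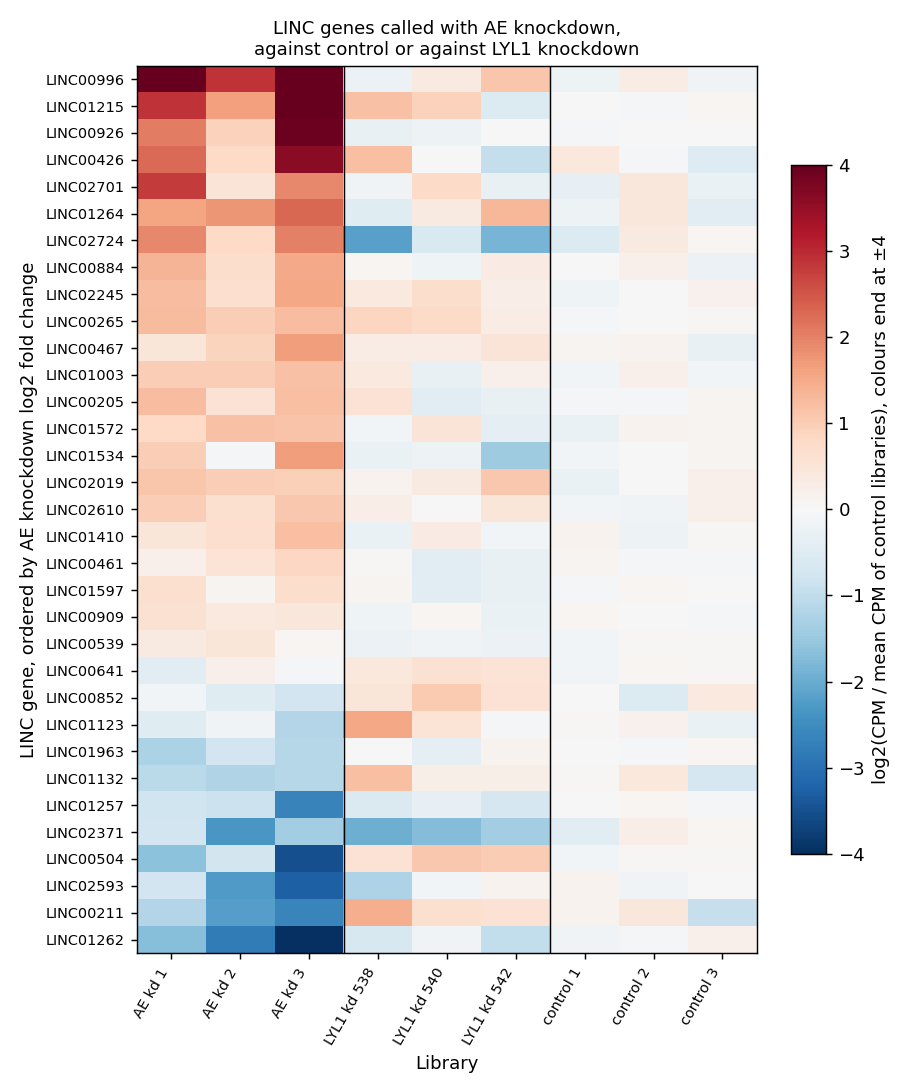
Log2 of CPM over the mean of the control libraries, per library, for the LINC genes called with AE knockdown against control or against LYL1 knockdown, ordered by the AE knockdown log2 fold change. LINC00996 and LINC01215 reach the upper end of the scale in AE knockdown replicate 3, LINC00996 also in replicate 1, and LINC00926 comes near it in replicate 3. LINC01262 reaches the lower end in AE knockdown replicate 3. LINC02724, LINC00211 and LINC00504 are among the genes with opposite colours in the AE and LYL1 knockdown libraries. LINC00926, LINC00852 and LINC00539 also lie on opposite sides of the control mean, in part with faint colours.

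By the GENCODE version 29 annotation (GRCh38), 113 of the 125 could be matched by symbol to 1 gene. Of these 87 are lincRNAs proper, 10 processed transcripts and 8 antisense genes. Exons of 25 overlap those of a coding gene, 14 on the opposite and 11 on the same strand, counted per strand, so that their counts may hold reads of that gene. Among the called genes named above this applies to LINC00884 and LINC00852. LINC02610, LINC02701 and LINC02724 were not matched.

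Other noncoding RNA groups are given for comparison. Over all genes tested, 11.4% were called higher and 10.4% lower with AE knockdown. Of 22 SNHG genes, hosts of small nucleolar RNAs, 11 rose (50%) and none fell with AE knockdown (median log2 fold change 0.66). SNHG29 rose 2.31-fold and SNHG5 2.25-fold (edgeR adjusted p of 0.00507 and 0.00959). Of 18 microRNA host genes 4 rose and 2 fell (22.2% and 11.1%, median 0.35). MIR223HG, host of the myeloid microRNA miR-223, rose to 245 ± 160 CPM with AE knockdown against 55.2 ± 4.13 CPM in the controls. Of 264 tested genes named as antisense, 32 rose and 6 fell (12.1% and 2.27%, median 0.27), so the share of rises was near that of all genes. Of 18 tested of a list of well-known long noncoding RNAs 5 rose (27.8%) and none fell (median 0.40). Among the rises were GAS5 (2.14-fold) and MALAT1 (2.03-fold). None of these groups had a called gene with LYL1 knockdown by edgeR, which called 0.0136% of all genes there. Their number of calls was not tested against that of the LINC genes.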

How the data were processed

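RNA was measured in 9 libraries of Kasumi-1 cells. The deposited counts are raw whole-number reads per gene symbol and library, with no normalisation by the authors. The build was hg19, per the submitters' processing notes, which also name featureCounts 2.0.1 and HISAT2 2.2.0 beside fastp 0.20.1 and SAMtools 1.7, and DESeq2 1.26.0, without saying what each did. The annotation, the strand setting and how multi-mapping reads were counted are not given in the sources used here. In 6 files 5 names carried a decimal suffix, which was removed.

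Genes were kept with filterByExpr by group and scaled with TMM. All 9 libraries entered one group-means model of edgeR 4.0.16 (R 4.3.3), tested with the quasi-likelihood F test with robust dispersions. Benjamini-Hochberg adjustment ran over all 14741 tested genes. Called means an adjusted p below 0.05. CPM uses library totals, fold changes use TMM and a prior count of 0.125, and the standard error is the log2 fold change over the root of F. The fit was tested on simulated counts.

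The genes and lists were chosen with earlier results of these data known. Genes are named by a rule: up to 10 rises and falls per comparison, the 5 with most reads, and neighbours. Exceptions are marked. Alternatives were other scalings, filters and thresholds, DESeq2 1.42.0, limma-voom (limma 3.58.1), fits of 6 libraries, leaving out each library, and a replicate block. The legacy quasi-likelihood test and the genes at 0.5 CPM or more in every group were added after seeing the data. RefSeq tables (GRCh38.p14) placed all 125 genes, 108 under the files' symbol and the others by synonym. Coordinates are given only for RefSeq promoters, as the files' build differs.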

Additional observations from a re-analysis of the deposited data

How the results depend on the processing

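The median coefficient of variation of the LINC genes was 32.0% in AE knockdown, 29.9% in LYL1 knockdown and 15.4% in control libraries, against 23.5%, 16.4% and 8.57% over all genes tested. All 24 AE knockdown calls kept their sign in every fit that tested them, the strict filter leaving 7 untested. They were 17 higher and 7 lower, and 8 and 5 with a replicate block, which kept 12 of the 24. With the block 10.4% of the LINC genes were called, against 11.4% of all genes tested in that fit. Deviations of same-numbered AE knockdown and control libraries from their group means correlated at 0.0416, -0.0135 and 0.00685. The controls vary little and each group has only 3 libraries, so this cannot show whether same-numbered libraries were handled together. At an adjusted p below 0.01 there were 2 and 1 calls, and the share of all genes at that threshold is not given here. Among the 103 genes at 0.5 CPM or more in every group, a choice made after seeing the data, they were 13 and 5. Without the low-count filter 4 were lower, and in a fit of the 6 libraries 3 were lower. In either direction these fits called 15.2% and 16% of the LINC genes, against 8.92% and 18% of all genes tested in them. Leaving out 1 library gave 3 to 30 higher and 2 to 7 lower, fewest without a control.

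Of the 25 calls between the knockdowns, 17 higher and 8 lower, the sign held in every fit that tested them, with 9 untested under the strict filter. The higher calls were 9 without the low-count filter, 7 by limma-voom with a spread per group, 3 in a fit of the 6 libraries, 2 at an adjusted p below 0.01 and 11 with a 2-fold minimum. The lower calls were 5 with the strict filter, 4 by limma-voom with a spread per group, 2 in a fit of the 6 libraries and 2 at an adjusted p below 0.01. In either direction 12% of the LINC genes were called without the low-count filter, against 8.47% of the 29826 genes then tested. With the strict filter it was 13.6%, against 24% of all genes tested. By limma-voom with a spread per group it was 8.8%, against 11.6%, and with 6 libraries 4%, against 6.56%. All-gene shares at an adjusted p below 0.01 and with a 2-fold minimum are not given here. Leaving out 1 library gave 6 to 27 higher and 5 to 8 lower. Over LYL1 knockdown against control every setting gave 0 calls. For that comparison, no paired analysis was possible because LYL1 and control libraries share no numbers. The median log2 fold change of all genes with AE knockdown lay between 0.00 and 0.10 over the scalings and filters. The causes were not tested.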

Other observations

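Of the 1982 LINC symbols below 0.5 CPM, 23 passed the low-count filter. LINC00954 was called higher and LINC02785 lower with AE knockdown against control, and LINC01943 and LINC02785 lower with AE knockdown than with LYL1 knockdown. Their median log2 fold change with AE knockdown was -0.04.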
